A study of Mus musculus with 4 samples.

Results

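The 7 mouse genes described here, Brdt, Brd2, Brd3, Brd8, Brwd1, Brwd3 and Phip, encode bromodomain proteins. They were chosen by name from the 23420 genes of the expression table, with earlier results of these data known. All 7 were listed. Brdt, Brd2 and Brd3 belong to the BET family. Brwd1, Brwd3 and Phip form the BRWD family, and Brd8 is a bromodomain gene outside both. Of the 7, only Brwd3 lies on the X chromosome.

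A bromodomain is a small protein fold that binds acetylated lysine, most often on the tails of histones. BET proteins carry a pair of bromodomains and an extra-terminal domain, recruit the elongation factor P-TEFb and chromatin regulators to acetylated chromatin, and in the male germline include BRDT, a testis-specific member required for the meiotic gene expression programme and later for the removal of histones from sperm chromatin. BRWD proteins join bromodomains to WD repeats and act as substrate receptors of the CUL4-DDB1 ubiquitin ligase, while BRD8 is a subunit of the NuA4/TIP60 histone acetyltransferase complex. In pachytene spermatocytes the unsynapsed X and Y chromosomes are silenced by meiotic sex chromosome inactivation (MSCI), which depends on signalling by the ATR kinase.

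RNA was sequenced from pachytene spermatocytes that had been sorted by FACS from testes of wild-type C57BL/6 mice (aged 23 weeks) and kept in culture for 24 h, with 2 libraries of 15000 cells per condition. Ctrl cells received DMSO, the solvent, and AZ20 cells received 10 µM AZ20, which inhibits ATR (ATRi) and was dissolved in DMSO. Cells of both groups had been stained with the DNA-binding dye DyeCycle Violet for sorting. No other allele or treatment is stated for either group. Each experiment used the cells of a mouse, which were divided between the conditions, so that replicate 1 of Ctrl pairs with replicate 1 of AZ20, and likewise replicate 2. The culture temperature is 34 °C in the sample labels and 32 °C in the methods, and the sorted fraction was enriched for pachytene cells, not pure.

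The label of the cells was checked against marker genes. All 10 markers of pachytene spermatocytes were above 1 TPM (a level per transcript length, scaled so that the genes of a library sum to 1000000), with a summed level of 5755 to 6714 TPM, and Sycp3, of the synaptonemal complex, ranged from 2061 to 2924 TPM. None of 7 Sertoli cell markers was above 1 TPM, with Sox9 at 0 in all 4 libraries, and 5 of 6 Leydig cell markers were at 0, Cyp17a1 among them. The remaining Leydig marker gave sums of 0.866 and 2.31 TPM in Ctrl replicates 1 and 2 and of 1.60 and 2.11 TPM in AZ20. Summed over their marker lists, macrophage genes reached at most 1.47 TPM, peritubular myoid genes 4.60 TPM, spermatogonial genes 21.2 TPM, with Stra8 at 0, and leptotene and zygotene genes 12.7 TPM. Spermatid RNA differed between libraries: the 8 round spermatid markers summed to 93.4 and 33.1 TPM in Ctrl replicates 1 and 2 and to 129.7 and 58.3 TPM in AZ20, and the 6 elongating spermatid markers summed to 356, 148, 770 and 248 TPM in the same order. In both groups 7 of the 8 and 5 of the 6 were higher in replicate 1. Within each replicate pair both sums were also higher in AZ20 than in Ctrl, and the cause was not tested. Recovered from the TPM values, gene reads numbered 13850221 (replicate 1) and 15720130 (replicate 2) for Ctrl, and 20082737 and 18395118 for AZ20.

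Promoter sequences of 3 members are shown because their levels mark the extremes of the set: Brdt had the highest level, Brwd3 was listed at 0 in both Ctrl libraries, and Brwd1 is the most highly expressed autosomal paralog of Brwd3. Each window holds 250 bases before and 50 bases after the start of the gene in RefSeq (build GRCm38.p6), and CpG dinucleotides are in capitals. The windows are chr5:107330944-107331243 on the plus strand for Brdt, chrX:108834297-108834596 on the minus strand for Brwd3, and chr16:96082379-96082678 on the minus strand for Brwd1, each written 5′ to 3′.
Brdt: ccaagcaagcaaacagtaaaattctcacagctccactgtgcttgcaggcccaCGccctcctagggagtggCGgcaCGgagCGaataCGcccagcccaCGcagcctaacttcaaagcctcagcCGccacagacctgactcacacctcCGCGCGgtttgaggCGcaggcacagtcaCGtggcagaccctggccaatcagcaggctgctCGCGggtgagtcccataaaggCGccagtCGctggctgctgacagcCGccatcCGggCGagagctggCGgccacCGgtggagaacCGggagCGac
Brwd3: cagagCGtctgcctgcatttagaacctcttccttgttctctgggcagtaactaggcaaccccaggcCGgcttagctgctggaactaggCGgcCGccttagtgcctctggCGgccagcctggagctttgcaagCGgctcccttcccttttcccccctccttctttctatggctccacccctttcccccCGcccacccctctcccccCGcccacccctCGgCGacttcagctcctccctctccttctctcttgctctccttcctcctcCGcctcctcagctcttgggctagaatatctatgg
Brwd1: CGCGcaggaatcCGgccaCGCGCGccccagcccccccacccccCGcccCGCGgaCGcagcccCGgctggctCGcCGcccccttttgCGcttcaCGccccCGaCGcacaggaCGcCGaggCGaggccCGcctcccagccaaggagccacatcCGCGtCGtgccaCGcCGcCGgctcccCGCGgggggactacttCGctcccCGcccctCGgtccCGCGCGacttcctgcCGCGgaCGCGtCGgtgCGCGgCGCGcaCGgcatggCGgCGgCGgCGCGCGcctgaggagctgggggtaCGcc

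The Brwd1 window was the richest in CpG of the 3, with 52, more than 99.4% of the 32851 mouse promoter windows of the same length, whose median was 7. Brdt had 23 CpG, more than 78.5% of windows, and a GC content of 64.7%. Brwd3 had 11 CpG, more than 58.6% of windows, and a GC content of 61.7%, against a median of 52.7% over all windows. The window of Phip, the remaining BRWD gene, held 41 CpG, and that of Brd3 held 46. Brd2 has 3 such windows, with 14 to 32 CpG. Of 3 motifs searched on both strands, CACGTG (the E-box core), CCAAT and TATAAA, none of which contains another, the Brdt window held CACGTG and CCAAT, present in 7.15% and 37.4% of all windows. None of the 3 was found in the windows of the other 5 members that have one, and TATAAA is present in 13.6% of all windows. These counts describe letters in a window and say nothing of binding.

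The question for each member was whether its RNA level differed after ATRi. In sum, none of the 6 autosomal members passed the test, their levels kept the same order in Ctrl and AZ20, and Brwd3 was detected only in the AZ20 libraries. In bulk libraries such as these, fewer cells of a type and less RNA per cell cannot be told apart.

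Brdt had the highest level of the 7, at 87.7 and 95.6 TPM in Ctrl and 81.7 and 84.5 TPM in AZ20. Both AZ20 libraries lay below both Ctrl libraries, by a small margin. The group means were 91.6 ± 5.62 (SD, n = 2) and 83.1 ± 1.93 TPM, and the Ctrl level exceeded that of 84.7% of the 10316 expressed genes. The change of Brdt on the log2(TPM + 1) scale was -0.14 (SE 0.17; 95% interval -0.54 to 0.27), with -0.10 in the first pair and -0.18 in the second. It did not pass the test (limma, adjusted p = 0.882), and its interval spans 0.685-fold to 1.20-fold. The gene (ENSMUSG00000029279) lies at chr5:107331159-107387058 on the plus strand, and 4445 to 5972 reads supported each value.

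Brd2, a ubiquitously expressed BET gene that binds acetylated histone H4, was at 6.49 and 7.33 TPM in Ctrl and 8.76 and 7.86 TPM in AZ20. Here both AZ20 libraries lay above both Ctrl libraries. The means were 6.91 ± 0.596 and 8.31 ± 0.639 TPM (SD, n = 2), and the log2 change of 0.24 (SE 0.24; interval -0.33 to 0.80) did not pass the test (limma, adjusted p = 0.853). Brd2 (chr17:34112023-34122634, minus strand) overlaps H2-DMa on the opposite strand, which was at 0 to 0.680 TPM. The strand setting of the counting is not given in the sources used here, so reads from a stretch shared by such a pair cannot be told apart.

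Brd3, a BET gene also expressed in most tissues, was at 14.1 and 12.6 TPM in Ctrl and 13.3 and 12.1 TPM in AZ20, and the groups overlapped. Its log2 change was -0.07 (SE 0.22; interval -0.59 to 0.46; limma, adjusted p = 0.967). Brd3 lies at chr2:27445579-27507662 on the minus strand.

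Brdt RNA exceeded that of Brd2 and Brd3 together in every library. Its share of the summed TPM of Brdt, Brd2 and Brd3 was 81.0% and 82.7% in Ctrl and 78.7% and 80.9% in AZ20. The AZ20 values were lower within each pair, by 2.26 and 1.85 percentage points, and both lay below both Ctrl values. The difference of the group means was -2.06 points (81.9% ± 1.24 against 79.8% ± 1.53, SD, n = 2), with a two-sided exact permutation p of 0.333, the smallest that 2 against 2 libraries allow, so this design could not reach 0.05. With libraries exchanged only within pairs, the exact permutation p was 0.5, the smallest that 2 pairs allow.

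Among these genes the ratio of Brdt to Brd2 was lower in both AZ20 libraries than in either Ctrl library. It was 13.5 and 13.0 in Ctrl and 9.33 and 10.8 in AZ20. That of Brdt to Brd3 overlapped between the groups, at 6.22 and 7.59 in Ctrl and 6.14 and 6.99 in AZ20. The sum of the 3 BET members was 108 and 116 TPM in Ctrl and 104 TPM in both AZ20 libraries.

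**Figure D1:**
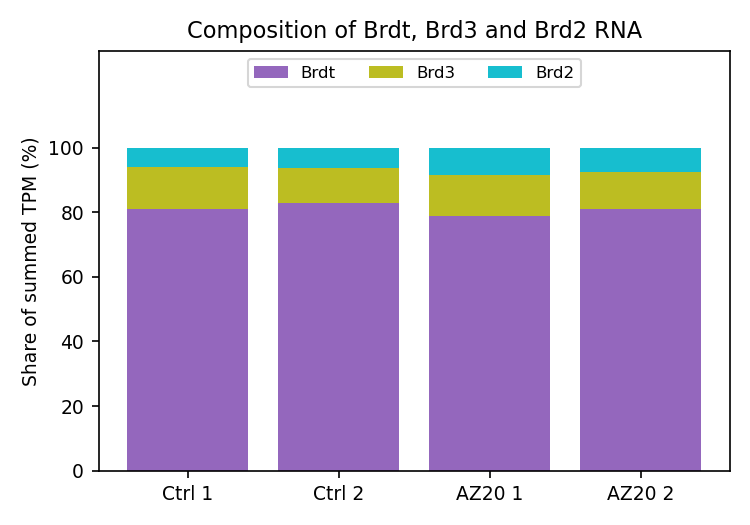
Share of each gene in the summed TPM of Brdt, Brd3 and Brd2 (vertical axis, percent) in each library (horizontal axis). Brdt made up 81.0% and 82.7% in Ctrl and 78.7% and 80.9% in AZ20.

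Brd8, the NuA4/TIP60 subunit, was the second most abundant member, at 79.0 and 50.2 TPM in Ctrl and 70.0 and 65.1 TPM in AZ20. The 2 Ctrl libraries were further apart than any AZ20 value from either, and the AZ20 values lay between them. The means were 64.6 ± 20.3 and 67.6 ± 3.46 TPM (SD, n = 2), and the log2 change was 0.10 (SE 0.25; interval -0.49 to 0.68; limma, adjusted p = 0.955). The pairs differed in sign, at -0.17 and 0.37. The higher Ctrl value came from replicate 1, in which the round spermatid markers summed to 93.4 TPM against 33.1 TPM in replicate 2. In AZ20 replicate 1, with Brd8 at 70.0 TPM, these markers summed to 129.7 TPM. The part of spermatid RNA in the Brd8 level was not tested. Brd8 lies at chr18:34598615-34624601 on the minus strand.

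Brwd1, whose protein is needed for fertility in both sexes of mice, was at 4.63 and 4.50 TPM in Ctrl and 6.16 and 5.60 TPM in AZ20. The AZ20 libraries were above the Ctrl libraries in both pairs and the groups did not overlap. The means were 4.56 ± 0.0937 and 5.88 ± 0.397 TPM (SD, n = 2), and the log2 change of 0.31 (SE 0.25; interval -0.28 to 0.89) did not pass the test (limma, adjusted p = 0.816). Brwd1 lies at chr16:95992092-96082526 on the minus strand, and 525 to 1007 reads supported each value.

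Phip, named for the binding of its product to the pleckstrin homology domain of insulin receptor substrates, was at 3.22 and 3.11 TPM in Ctrl and 1.71 and 3.14 TPM in AZ20. Only AZ20 replicate 1 stood apart, with 267 reads in the deepest library, and AZ20 replicate 2 fell within the Ctrl range. The log2 change of Phip was -0.31 (SE 0.32; interval -1.07 to 0.44; limma, adjusted p = 0.852), with -0.64 in the first pair and 0.01 in the second. Without AZ20 replicate 1 the change was -0.01. Phip lies at chr9:82866159-82975516 on the minus strand.

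Among the 6 tested members 0 were called, that is, changed at least 2-fold with an adjusted p under 0.05, where 2.33% of the 10316 expressed genes were called, 2.28% higher and 0.0485% lower. None of the 6 had an unadjusted limma p under 0.05, a level reached by 9.16% of all expressed genes, and limma-voom on the recovered reads also called 0. Both AZ20 libraries were above both Ctrl libraries for 2 of the 6 (Brd2 and Brwd1), against 26.4% of expressed genes, and below for 1 (Brdt), against 11.7%. The median change of the 6 was 0.02 on the log2 scale, against 0.07 for all expressed genes. The standard errors, 0.17 to 0.32, bound what could be seen: on the log2(TPM + 1) scale a 2-fold rise lies outside the intervals of all 6, and a 2-fold fall lies outside those of all but Phip. These are not bounds on folds in TPM, which this scale understates for low genes such as Brwd1.

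**Figure D2:**
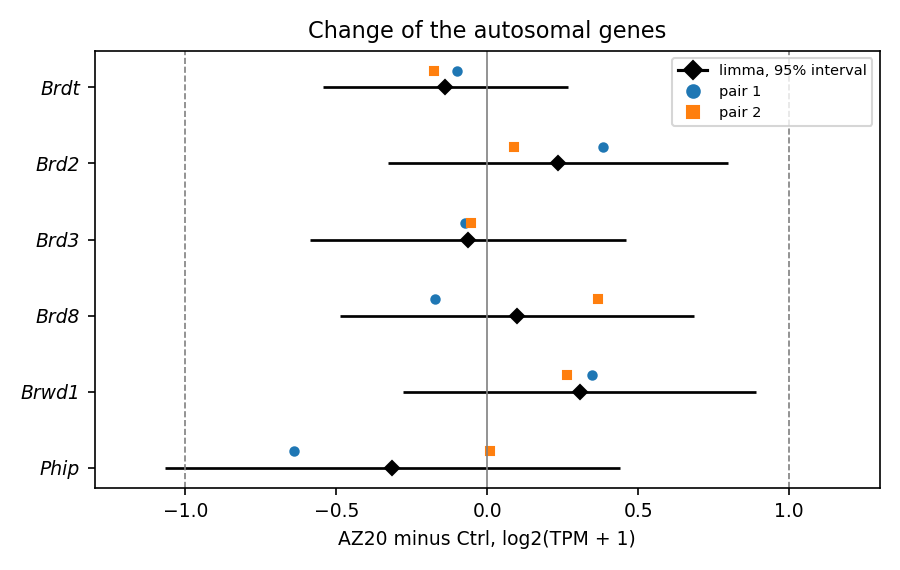
Difference AZ20 minus Ctrl on the log2(TPM + 1) scale (horizontal axis) for the 6 autosomal members, with the limma estimate as a diamond, its 95% interval as a line, and the difference within each replicate pair as a circle (pair 1) or square (pair 2). Dashed lines mark a 2-fold change, and every interval crosses 0.

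Brwd3, the X-linked BRWD gene, mutations of which cause intellectual disability in humans, was listed at 0 in both Ctrl libraries and at 0.428 and 0.130 TPM in AZ20. Detection thus separated the groups, though at a level under 1 TPM in every library and with deeper AZ20 libraries. The AZ20 values correspond to 40 reads in replicate 1 (exact Poisson 95% interval 28.6 to 54.5) and 11 reads in replicate 2 (5.49 to 19.7), and the 2 AZ20 libraries differed 3.28-fold. These intervals cover counting error only. AZ20 replicate 1 also had the higher sum of round spermatid markers, 129.7 TPM against 58.3 TPM in AZ20 replicate 2. Ctrl replicate 1 had a sum of 93.4 TPM with Brwd3 at 0. The part of spermatid RNA in the Brwd3 level was not tested.

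Against a floor of 3 reads set for each Ctrl library, equal to 0.0462 and 0.0404 TPM, the AZ20 mean of 0.279 ± 0.210 TPM (SD, n = 2) was 6.44-fold higher. By pair the fold over the floor was 9.25 and 3.22. These folds take the AZ20 reads as exact and leave out their counting error, so they are not lower bounds. A common whole factor of the 4 read numbers cannot be seen in TPM, so the reads are minimum numbers and these folds would only grow with such a factor. The length that relates reads to TPM for Brwd3 was 6434 bases, shorter than the longest GENCODE transcript of the gene (11619 bases).

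Brwd3 did not reach the mean of 1 TPM required for the test. In a fit without that filter its log2 change was 0.35 (SE 0.14; interval -0.01 to 0.70; limma, adjusted p = 0.674), and with the replicate block, added after the data were seen, adjusted p was 0.415 by limma. Since Ctrl was at 0, the pseudocount sets the size of this change, which was 1.80 with 0.1 and 4.63 with 0.01. The antisense gene 2810403D21Rik, on the opposite strand within the locus (chrX:108737016-108834372, minus strand), was at 0.137 TPM in AZ20 replicate 1 and at 0 in the other 3 libraries. As for Brd2, the strand setting is not given, so reads from a stretch shared by this pair cannot be told apart.

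Most expressed X-linked genes were called higher, 63.3% of 341. Genes at 0 in Ctrl were among the 341 only if their AZ20 mean exceeded 1 TPM, so the filter in part sets this share. A total of 230 X-linked genes were, like Brwd3, at 0 in both Ctrl libraries and above 0 in both AZ20 libraries. Their median AZ20 level was 0.888 TPM, 109 of them exceeded 1 TPM, and 56 (24.3%) lay below Brwd3. The share of all listed genes with this pattern was not computed, and autosomal Prr23a and Adam24 also had it. The AZ20 libraries were deeper, at 20082737 and 18395118 gene reads against 13850221 and 15720130 in Ctrl. The part of depth in this count was not tested.

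The X-linked member was set against its autosomal paralogs within each library. On the log2(TPM + 1) scale Brwd3 lay below the mean of Brwd1 and Phip by -2.29 and -2.25 in Ctrl and by -1.63 and -2.21 in AZ20. The difference between the groups was 0.35, with 0.66 in the first pair and 0.04 in the second, so most of it came from replicate 1, where Phip was low and Brwd3 high. The two-sided exact permutation p was 0.333, the smallest that free exchange of the libraries allows. Exact permutation within pairs gave p = 0.5, also the smallest possible. Brwd3 made up 5.15% and 1.47% of the summed TPM of the 3 BRWD genes in AZ20. The ratio of Brwd1 to Phip was 1.44 and 1.45 in Ctrl and 3.60 and 1.78 in AZ20.

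Ranked by TPM, the order of the 7 genes was Brdt, Brd8, Brd3, Brd2, Brwd1, Phip and Brwd3 in both groups. No neighbours in this order had overlapping libraries in either group, although 2 libraries a group allow no test of a rank. The closest neighbours were Brdt and Brd8, with mean levels 1.42-fold apart in Ctrl and 1.23-fold apart in AZ20. The widest step among the autosomal members was from Brd8 to Brd3, at 4.84-fold in Ctrl and 5.32-fold in AZ20. Brd2 and Brwd1 were 1.51-fold and 1.41-fold apart, and Brwd1 and Phip 1.44-fold and 2.42-fold apart.

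**Figure D3:**
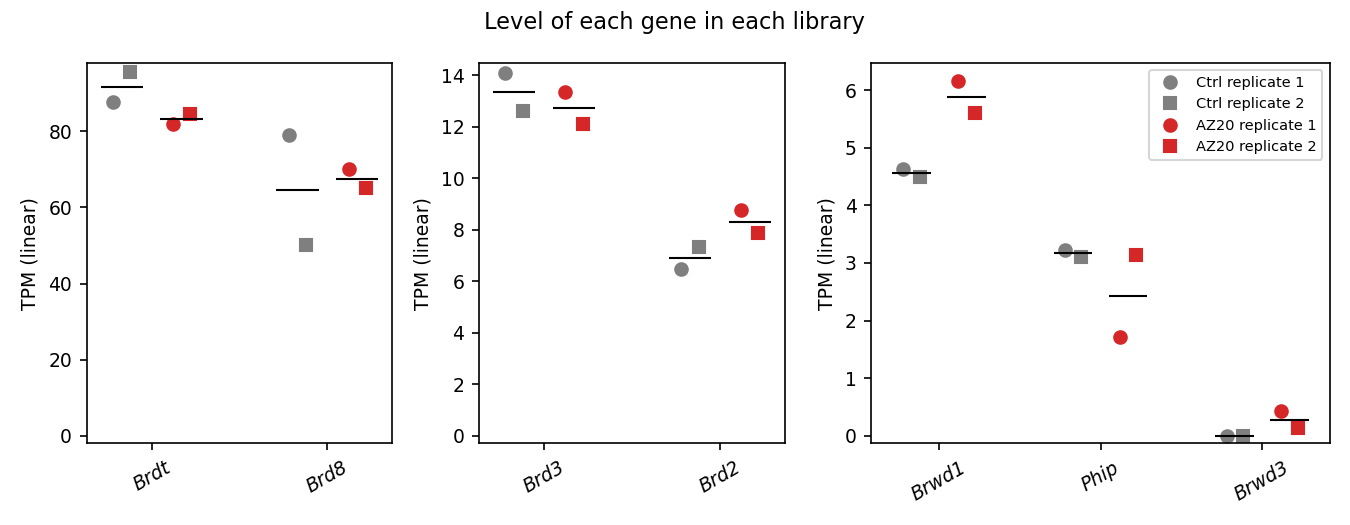
Level of each member in TPM (vertical axes, linear, each panel with its own range) in Ctrl (grey) and AZ20 (red), with replicate 1 as circles, replicate 2 as squares and group means as bars. Brwd3 sits at 0 in both Ctrl libraries and at 0.428 and 0.130 TPM in AZ20, while Brd8 shows the widest spread, in Ctrl.

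The genes most like Brdt in level were those with the smallest root mean square difference of log2(TPM + 1) over the 4 libraries, among the 10316 expressed genes. They were Sec13 (difference 0.061), Rsph3a (0.068) and Ube2m (0.068). Sec13 was at 94.7 TPM in both Ctrl libraries and at 84.6 and 84.9 TPM in AZ20. For Brwd3 the closest expressed genes were Prr23a on chromosome 9 (0.470), 2010308F09Rik on the X chromosome (0.480) and Adam24 on chromosome 8 (0.484). All 3 were at 0 in Ctrl and at 0.544 to 1.57 TPM in AZ20. Because only genes above a mean of 1 TPM in a group were compared, any such gene had to lie above Brwd3 in its AZ20 mean.

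The partners of these proteins were read from gene lists. Of 17 NuA4/TIP60 genes, partners of BRD8, all 17 were tested, 1 was called higher and 0 lower, with a median log2 change of 0.08. The called gene was X-linked Morf4l2, at 0.280 and 0.105 TPM in Ctrl and 21.4 and 25.3 TPM in AZ20 (log2 change 4.35; limma, adjusted p = 0.000153). Its autosomal relative Morf4l1, the most abundant gene of the list, was at 1329 and 1357 TPM in Ctrl and 1322 and 1445 TPM in AZ20 (log2 change 0.04). None of the 16 autosomal genes of the list was called by limma, and 2 had an unadjusted p under 0.05: Mrgbp, at a log2 change of 0.44, and Meaf6, at -0.40.

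Of the 4 genes of the CUL4-DDB1 ligase, which the BRWD proteins serve as substrate receptors, 1 was called higher and 0 lower, with a median of 0.18. X-linked Cul4b, one of the cullin scaffolds, was at 0.902 and 0.0343 TPM in Ctrl and 26.3 and 27.9 TPM in AZ20 (log2 change 4.32; limma, adjusted p = 0.000534). The call for Cul4b was lost with a pseudocount of 0.01, at a larger log2 change of 7.08 (limma, adjusted p = 0.119). Its autosomal paralog Cul4a was at 37.6 and 36.1 TPM in Ctrl and 47.8 and 48.7 TPM in AZ20, a log2 change of 0.38 that did not pass the test (limma, adjusted p = 0.643). The log2 change of Ddb1, the adaptor, was -0.06 and that of the RING subunit gene Rbx1 was -0.02, and neither passed the test.

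Brwd3 and Cul4b, an X-linked receptor and an X-linked scaffold of the same ligase family, thus differed in level after AZ20. In AZ20 replicates 1 and 2 there were 40 and 11 reads for Brwd3 against 1935 and 1849 for Cul4b. Cul4b also differed between the Ctrl libraries, with 46 and 2 reads. Without either AZ20 library the calls for Morf4l2 and Cul4b were lost, as were all calls of higher genes, while their log2 changes were 4.23 to 4.47 and 4.28 to 4.36.

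**Figure D4:**
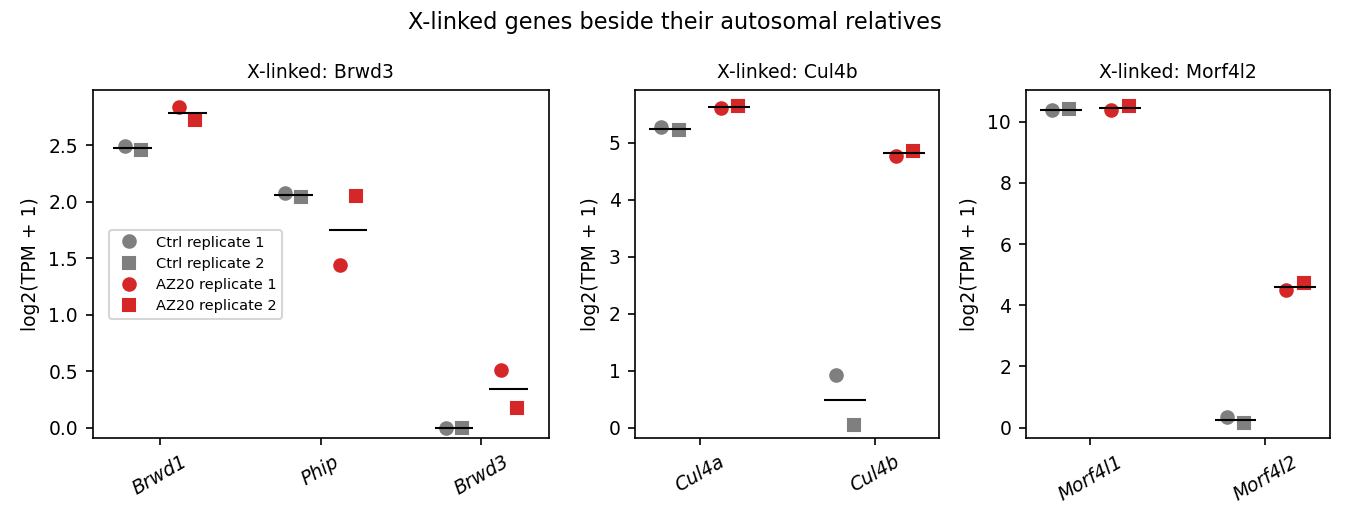
Level on the log2(TPM + 1) scale (vertical axes, each panel with its own range) of Brwd3, Cul4b and Morf4l2, which are X-linked, beside their autosomal relatives, with grey for Ctrl, red for AZ20, circles for replicate 1, squares for replicate 2 and bars for group means. Cul4b and Morf4l2 rose in AZ20 by 4.32 and 4.35, and Brwd3 moved from 0 to 0.51 and 0.18.

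BET proteins work with P-TEFb, and of 11 genes of P-TEFb, its inhibitors and elongation partners, 10 were tested and 0 were called by limma (0 at an unadjusted p under 0.05), with a median of 0.01. The most abundant was Larp7, of the inhibitory 7SK particle, at 813 and 623 TPM in Ctrl and 558 and 547 TPM in AZ20 (log2 change -0.37), and the largest difference was that of the elongation factor gene Ell2 (0.75; limma, adjusted p = 0.686). Of 5 partners of the BET extra-terminal domain, 4 were tested and 0 called (0 at an unadjusted p under 0.05), with changes from -0.09 (Whsc1l1, the listed symbol of the histone methyltransferase gene Nsd3) to 0.25 (Glyr1). Jmjd6, the most abundant of them, was at 31.7 and 43.8 TPM in Ctrl and 44.1 and 36.6 TPM in AZ20.

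Of 32 other bromodomain genes, 23 were tested and 9 were not above 1 TPM. None of the 23 was called by limma (0 at an unadjusted p under 0.05). Their median change was 0.13, against 0.02 for the members and 0.07 for all expressed genes, with 15 changes above 0 and 8 below. The largest were 0.55 for Baz1b, a subunit of chromatin remodelling complexes (limma, adjusted p = 0.697), and -0.45 for Zmynd11, a reader of methylated histone H3.3 (limma, adjusted p = 0.780). Zmynd11 had the highest mean over the 4 libraries, at 161 and 81.4 TPM in Ctrl and 92.8 and 75.2 TPM in AZ20. That rank rested on Ctrl replicate 1, since Trim28 was above it in both replicate 2 libraries, at 81.9 TPM in Ctrl and 97.1 TPM in AZ20. Ctrl replicate 1, the high one for Zmynd11, was also the Ctrl library with more spermatid RNA. AZ20 replicate 1, where Zmynd11 was at 92.8 TPM, had the highest summed spermatid markers of the 4 libraries. The part of spermatid RNA was not tested. Taf1, the X-linked bromodomain gene of this list and a TFIID subunit, was at 0 in both Ctrl libraries and at 0.247 and 0.0662 TPM in AZ20, from 29 and 7 reads. Like Brwd3 it stayed below the filter, with the higher value in AZ20 replicate 1. The part of spermatid RNA in the Taf1 level was not tested either.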

How the data were processed

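The authors trimmed paired reads with Trimmomatic 0.39, aligned them to GRCm38 (mm10) with STAR 2.5.4b keeping unique alignments, counted them on UCSC refGene genes with featureCounts 2.0.1 and deposited TPM values, 1 column for each of the 4 libraries, each summing to 1000000. The strand setting is not given in the sources used here. A total of 92 blank lines was left out, and 1 gene of the lists is not reported here. The members and gene lists were chosen with earlier results of these data known.

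Genes with a mean above 1 TPM in either group were tested with limma 3.58.1 (R 4.3.3, variance trend) on log2(TPM + 1), two-sided, with Benjamini-Hochberg adjustment over all of them, and were called at a change of at least 2-fold with an adjusted p under 0.05. Folds of low genes are understated on this scale. The script was tested on simulated data. Single values were compared by exact permutation of the libraries, with permutation within pairs as an alternative.

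Whole reads were recovered from the TPM values, because a gene has the same length in every library: 14888 of the 14888 genes above 0 in at least 2 libraries came out whole within 0.05 reads, although any whole factor shared by the 4 numbers of a gene goes unseen. These reads gave the depths and served limma-voom as an alternative.

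By the methods, each mouse gave cells to both conditions, so replicate numbers pair the libraries, and deviations from the group means correlated at 0.229 between libraries of the same number over 10316 genes. The main model had no term for it, and an alternative did.

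Named genes were the members, X-linked list genes, called list genes, the most abundant and the most changed uncalled gene of each list, and the 3 genes nearest to Brdt and to Brwd3. Markers were lists of cell type genes. Gene positions are from GENCODE (GRCm38) and promoters from RefSeq (GRCm38.p6), which matched 6 of the 7 members. Alternatives were pseudocounts of 0.1 and 0.01, no filter, a filter at 5 TPM, no trend, the replicate block, quantile normalization, a common autosomal total, voom and leaving out each library. Other values were computed in Python (3.11.15) with scipy 1.17.1, numpy 2.4.6 and pandas 2.3.3.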

Additional observations from a re-analysis of the deposited data

How the results depend on the processing

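No member was called under any alternative. With the replicate block, 424 genes were called higher and 23 lower against 235 and 5 without it; the block changed no member's call and, of the named list genes run with it, added Hdac6 and Hdac8. Called lower were 1 gene with no filter, 11 with no filter and the block (added after the data were seen), 1 with voom and 3 with voom and the block. Leaving out each library in turn gave 0 to 200 called higher, with 0 without either AZ20 library, and 0 to 1 called lower, and the lone library of a group was then assumed to vary like the other group. In these fits the Brdt share differed by -3.14 to -0.97 points and the Brwd3 difference from its paralogs was 0.06 to 0.64, the lowest without AZ20 replicate 1. That difference was 1.84 and 4.67 with pseudocounts of 0.1 and 0.01. Log2 changes crossed 0 for Brd3 (-0.14 to 0.0096), Brd8 (-0.22 to 0.42), Zmynd11 (-0.93 to 0.038), Morf4l1 (-0.023 to 0.11), Rbx1 (-0.085 to 0.051), Ddb1 (-0.13 to 0.0031), Jmjd6 (-0.12 to 0.33), Glyr1 (-0.051 to 0.54) and Whsc1l1 (-0.32 to 0.15); the cause was not tested. Quantile normalization moved the median of all genes from 0.07 to -0.07 and gave Jmjd6 -0.015. The 6 tested members kept their sign, at -0.21 (Brdt), 0.019 (Brd2), -0.24 (Brd3), 0.0066 (Brd8), 0.074 (Brwd1) and -0.59 (Phip), and their median went from 0.016 to -0.10. The 5 TPM filter left Phip untested, and 2 libraries a group limit every test.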

Other observations

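Enzymes that write and remove the acetyl marks read by bromodomains were listed as well. Of 17 further histone acetyltransferase and deacetylase genes, 13 were tested, and 0 were called by limma, with a median log2 change of 0.36 over the 13 and 0.27 over the 11 autosomal ones, 1 of which had an unadjusted p under 0.05 (Sirt1, a deacetylase gene named after its value was seen, at a log2 change of 0.61). The X-linked deacetylase genes Hdac6 and Hdac8 were both at 0 in the Ctrl libraries. Hdac8 was at 2.11 and 1.94 TPM in AZ20 and Hdac6, whose product deacetylates tubulin, at 1.66 and 2.39 TPM, above Brwd3 and Taf1. Their log2 changes of 1.60 and 1.59 missed the threshold (limma, adjusted p = 0.0724 and 0.0906) and passed it with the replicate block (limma, adjusted p = 0.0068 and 0.0076), without the variance trend (0.0157 and 0.0259) and with voom (0.0476 and 0.0431). With no filter Hdac8 passed and Hdac6 did not (limma, adjusted p = 0.0438 and 0.0667), and under quantile normalization the changes were 1.23 and 1.22 and neither passed (limma, adjusted p = 0.259 and 0.315). Among autosomal genes the largest difference was that of Hat1, which acetylates newly made histones, at 59.9 and 116.8 TPM in Ctrl and 102 and 178 TPM in AZ20, with overlapping groups (limma, adjusted p = 0.689). Kat6b had the largest difference downwards, -0.31.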
